A study of Mus musculus with 4 samples.

Results

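The Ly6 genes described here are 8 mouse genes of the Ly6/uPAR superfamily: Ly6a, Ly6c1, Ly6d, Ly6e, Ly6h, Ly6k, Ly6g6c and Ly6g6e. They were picked by symbol from 30828 genes in single-cell matrices of the mouse testis at postnatal day (P) 8, and they were chosen on their measured levels across germ cell stages and somatic cells in the control and the mutant. Their levels and their ratios between genotypes are therefore given as descriptions, with no test. The control mice carried floxed Cnot3 alleles (Cnot3 flox/flox) and no Cre. The Cnot3-cKO mice carried the same alleles together with Ddx4-creER, a tamoxifen-dependent Cre recombinase driven by the germ cell gene Ddx4, so that deletion is confined by design to germ cells that express this transgene. Neonates were injected with 4-hydroxytamoxifen (4-OHT) starting on P1. Testis cells that carried CD9 and THY1 on their surface were sorted and their transcripts were counted at the 3′ end, as unique molecular identifiers (UMIs), each of which stands for 1 captured molecule. GEO's labels list 2 samples of each genotype, but each genotype's deposited matrix merges them, so the comparison is between 1 library and 1 library.

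Ly6/uPAR proteins share a small disulfide-rich domain with a three-finger fold, and most are held at the outer face of the plasma membrane by a glycosylphosphatidylinositol (GPI) anchor. LY6A (SCA-1) and LY6C1 are used to recognise stem and progenitor cells, endothelium and leukocytes by flow cytometry, LY6E is an interferon-induced protein, and LY6H belongs to the members that modulate nicotinic acetylcholine receptors in neurons. LY6K is a germ cell protein that works with another member, TEX101, in the maturation of sperm surface proteins needed for fertilization.

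After filtering, 8259 control and 9268 Cnot3-cKO cells were analysed, with medians of 14475 and 13150 UMIs per cell. Cells were clustered without any Ly6/uPAR gene, and clusters were named ("X-like") from listed marker genes. Of these, 1120 control and 464 Cnot3-cKO cells were germ-like; they comprised spermatogonial stem cell (SSC)-like, progenitor-like, differentiating-like and meiotic-like cells and a group whose leading genes gave no stage. The SSC-like cells numbered 108 and 299, the progenitor-like cells 200 and 6, the differentiating-like cells 396 and 63, the meiotic-like cells 167 and 74, and the cells of no stage 249 and 22. Nearly all SSC-like cells of the control lay in a cluster with Lhx1 and Gfra1 among its leading genes (106 of 108), and nearly all of those of the Cnot3-cKO in another, with Nefm and Id4 among its leading genes (283 of 299), so that values for SSC-like cells compare different clusters. The cells of no stage scored best for the SSC list, with 5 of its markers raised but none among their top 10 genes. In a coarser clustering (Leiden resolution 0.3), 1 SSC-like cluster held 395 control and 41 Cnot3-cKO cells and another 2 and 280. The numbers of SSC-like cells thus depend on the naming rule and the resolution, and their difference between the libraries was not tested. The meiotic-like cluster had both Meioc and the differentiating marker Dmrtb1 among its leading genes. Its name rests on markers, and entry into meiosis was not tested. A further 213 and 95 germ cells grouped by somatic genes, 180 and 72 of them called as doublets, and are kept apart. Levels are UMIs of a gene per 1000000 UMIs of the class (CPM), always given for the control first and the Cnot3-cKO second. The targeted gene, Cnot3, was at 70.1 CPM in the germ-like cells of the control and at 37.6 in those of the Cnot3-cKO; reads at the 3′ end need not fall in the deleted stretch. Sertoli-like cells, outside the reach of the Cre, had 63.8 and 67.5, SSC-like cells 76.3 and 33.5, and meiotic-like cells 69.6 and 54.2. In all, 18 cell barcodes were found in both libraries (0.218% of the control and 0.194% of the Cnot3-cKO cells), where 11.3 would be expected from the size of the barcode list.

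In the GRCm38 assembly, 6 of the 8 members lie on chromosome 15 between 74762056 and 75567255, in the order Ly6d, Ly6k, Ly6e, Ly6a, Ly6c1 and Ly6h, and 13 genes of the superfamily list fall in this stretch of 805.2 kb. Ly6g6c and Ly6g6e lie within 13.42 kb on chromosome 17, between 35065388 and 35078804, in the class III region of the major histocompatibility complex. Along chromosome 15, Ly6d was read in a single cell, the adjacent Ly6k mostly in meiotic-like cells, and the adjacent Ly6a and Ly6c1 were both high in endothelial-like cells. The pair on chromosome 17 was read in the same germ group. The 3′ ends of Ly6a and Ly6c1 resemble those of their relatives. Windows of 50 bases were taken from the last 400 bases of the coding transcripts. Of those of Ly6c1, 24.3% also occur in Ly6c2 and 4.87% in Ly6a. Reads within the shared windows fit more than 1 gene, which may affect the counts of Ly6a and Ly6c1. No window of Ly6d, Ly6e, Ly6h, Ly6k, Ly6g6c or Ly6g6e occurred in another gene of the matrices. Ly6g6e overlaps Ly6g6d on the other strand by 1164 bases, and the sources used here do not state that counting used the strand.

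RefSeq promoter windows of GRCm38.p6, from 250 bases before to 50 bases after a start site, were given for 2 of the 8 members, Ly6c1 and Ly6g6c. They are shown because the 2 genes stand for different patterns, endothelial-like and progenitor-like. For Ly6c1, which has 2 windows, the outer one is shown. The first is chr15:75048788-75049087 on the minus strand and the second chr17:35067075-35067374 on the plus strand. Capitals mark the E-box (CANNTG, which reads the same on both strands), the sequence bound by basic helix-loop-helix factors.
Ly6c1: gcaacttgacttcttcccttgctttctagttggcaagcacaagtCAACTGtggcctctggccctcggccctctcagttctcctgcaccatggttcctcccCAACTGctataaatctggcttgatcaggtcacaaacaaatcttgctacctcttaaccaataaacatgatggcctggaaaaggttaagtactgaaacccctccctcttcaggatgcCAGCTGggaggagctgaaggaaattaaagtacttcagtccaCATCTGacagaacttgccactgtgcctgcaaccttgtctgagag
Ly6g6c: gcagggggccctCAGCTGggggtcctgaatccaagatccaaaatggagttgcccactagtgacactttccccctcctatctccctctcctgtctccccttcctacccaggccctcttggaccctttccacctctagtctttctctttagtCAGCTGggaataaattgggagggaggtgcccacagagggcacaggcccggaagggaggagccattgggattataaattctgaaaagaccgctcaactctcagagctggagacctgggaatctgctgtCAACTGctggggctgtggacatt
The Ly6c1 window held 4 E-boxes and the Ly6g6c window 3, of which 1 and 2 read CAGCTG. At least 1 CANNTG occurred in 72.3% of the 32851 promoter windows and CAGCTG in 16.3%. Both windows also held TATAAA, which 13.6% of all windows did on either strand. Neither held the interferon-stimulated response element (3.44% of windows) or the STAT site TTCNNNGAA (8.3%). A match of letters is a description and not a site of binding.

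Ly6k was a gene of meiotic-like cells. Ly6k was at 64.6 CPM in control meiotic-like cells (95% Poisson interval 58.2 to 71.5, 376 UMIs) and at 85.4 in Cnot3-cKO meiotic-like cells (75.1 to 96.6, 249 UMIs), a log2 ratio of 0.40 (0.17 to 0.64). At a Leiden resolution of 1.0, which set the class more narrowly, the levels were 106 and 153. These intervals, and all those that follow, cover counting error only. In differentiating-like cells Ly6k was at 7.07 and 12.0, with 125 and 35 UMIs, a log2 ratio of 0.76 (0.18 to 1.31). This ratio was 1.63 with the study's stated filters, which left 64 control and 8 Cnot3-cKO cells of this group. At a Leiden resolution of 1.0 the levels were 12.3 and 24.0. In SSC-like cells it was at 1.61 and 3.09 and in progenitor-like cells at 0.43 and 0, where 6 cells in the Cnot3-cKO allow up to 8.47. In cells of no stage it was at 0.84 and 0.99. The interval of the Ly6k ratio lay above 0 in meiotic-like and differentiating-like cells. It included 0 in SSC-like cells (7 and 43 UMIs) and in cells of no stage (8 and 1 UMIs). Progenitor-like cells held 4 and 0 UMIs.

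To compare the shares of cells, each cell was thinned to 10000 UMIs. Ly6k was then detected in 40.1% of 167 control meiotic-like cells (exact binomial interval 32.6 to 48.0%) and in 51.4% of 74 Cnot3-cKO cells (39.4 to 63.2%), whose intervals overlap. Unthinned, these shares were 77.2% and 85.1%, at medians of 33324 and 36671 UMIs. In Sertoli-like cells, which should lack the transcript, the thinned shares were 0.153% and 0.0513%. Tex101, which encodes LY6K's partner, had a UMI in 128 of the 129 control and in all 63 Cnot3-cKO meiotic-like cells with Ly6k. Among meiotic-like cells without Ly6k, 36 control cells had Tex101 and 2 did not, and all 11 Cnot3-cKO cells had it. Tex101 itself was found in every germ group, at 157 and 264 CPM in SSC-like cells and at 211 and 291 in meiotic-like cells, so that the 2 partners differed in stage. The log2 ratio of Tex101 was 0.75 (0.63 to 0.87) in SSC-like and 0.47 (0.34 to 0.59) in meiotic-like cells. Outside the germ line Ly6k had 6 UMIs in control macrophage-like cells (4.83 CPM) and none in those of the Cnot3-cKO, and the summed germ marker level in the same cells was 475 and 20.2. Endothelial-like cells held 4 and 0 UMIs.

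Ly6g6c and Ly6g6e were genes of progenitor-like cells, which had Neurog3 among their leading genes. Ly6g6e was at 20.4 CPM in control progenitor-like cells (17.6 to 23.6, 190 UMIs) and at 19.8 in those of the Cnot3-cKO (7.94 to 40.7, 7 UMIs), a log2 ratio of -0.05 (-1.38 to 1.02). Ly6g6c was at 8.39 (6.63 to 10.5, 78 UMIs) and 8.47 (1.75 to 24.7, 3 UMIs), a log2 ratio of 0.01 (-2.30 to 1.61). The levels in this group were close in the 2 libraries, but the Cnot3-cKO values rest on 6 cells and their intervals admit differences of more than 2-fold either way. In cells of no stage Ly6g6e was at 4.01 and 3.97 and Ly6g6c at 2.01 and 2.98. Neither gene had a UMI in meiotic-like cells, which allows up to 0.515 and 1.03 CPM.

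Over all germ-like cells the picture was another. Ly6g6e was at 5.34 CPM in control germ-like cells (4.70 to 6.05, 249 UMIs) and at 0.99 in those of the Cnot3-cKO (0.61 to 1.52, 21 UMIs), a log2 ratio of -2.43 (-3.14 to -1.78). When the levels of the 5 germ groups were weighted by the control's mix of stages in both libraries, this ratio was -0.15. That value has no interval, and its Cnot3-cKO side draws on 7 UMIs in 6 progenitor-like cells. Cells with a Ly6g6e UMI numbered 168 of 1120 in the control and 17 of 464 in the Cnot3-cKO, of which 115 and 4 were progenitor-like. Ly6g6c was at 2.19 and 1.66 over germ-like cells (log2 ratio -0.40, -0.998 to 0.17), and at 0.45 in log2 ratio with the control's mix. The reweighted value again has no interval and draws on 3 Cnot3-cKO UMIs in progenitor-like cells. Of the 35 Ly6g6c UMIs in Cnot3-cKO germ-like cells, 25 lay in SSC-like cells (1.80 CPM, against 0.69 and 3 UMIs in the control). The differentiating-like cells held 2 and 4 UMIs of Ly6g6c, at 0.11 and 1.37 CPM (log2 ratio 3.60, 0.79 to 7.06), and 16 and 0 of Ly6g6e, at 0.90 and 0.

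The 2 neighbours were also read in the same cells: of 200 control progenitor-like cells, 44 had both, 71 only Ly6g6e, 15 only Ly6g6c and 70 neither. Neurog3, the gene that marks progenitors, had a UMI in 85 of the 115 control progenitor-like cells with Ly6g6e. Of the cells without Ly6g6e, 59 had a UMI of Neurog3 and 26 did not. At 10000 UMIs per cell Ly6g6e was detected in 17.9% of 196 control progenitor-like cells (12.8 to 24.0%) and in 0.0382% of Sertoli-like cells, and Ly6g6c in 9.69% and 0%. Ly6g6d, which overlaps Ly6g6e, was at 4.30 and 2.82 in progenitor-like cells, and reads in the overlap cannot be told apart from those of Ly6g6e if strand was not used. Sertoli-like cells held 28.2% of the UMIs of Ly6g6d and 0.765% of those of Ly6g6e. Outside the germ line Ly6g6e had 23 and 21 UMIs in stroma-like cells, at 0.77 and 0.73 CPM.

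**Figure D1:**
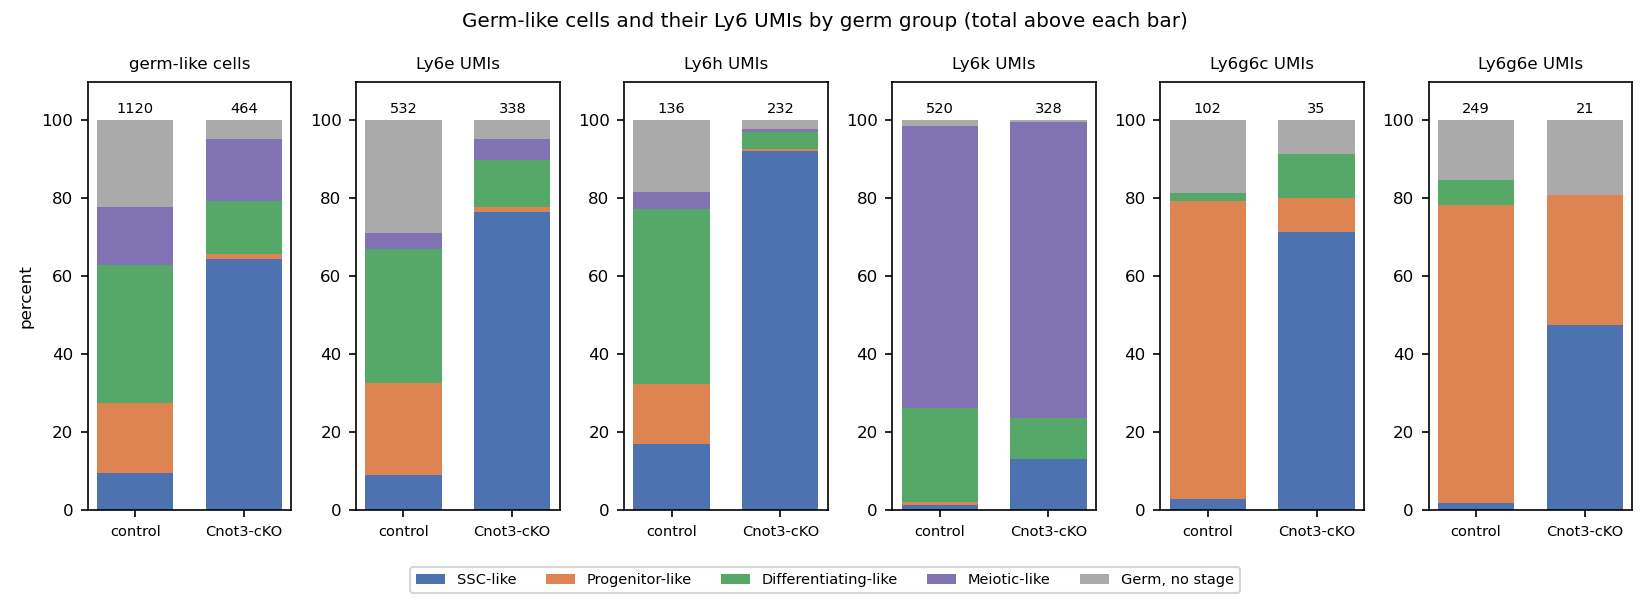
Stacked bars give the percentage of germ-like cells (left) and of the UMIs of 5 Ly6 genes in germ-like cells that fell in each germ group, in the control and the Cnot3-cKO, with the total above each bar. SSC-like cells are 108 of 1120 control and 299 of 464 Cnot3-cKO cells; Ly6k UMIs lie mostly in meiotic-like cells in both libraries, whereas Ly6g6c and Ly6g6e UMIs lie mostly in progenitor-like cells in the control.

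Ly6h was read in interstitial cells and, among germ groups, was highest in SSC-like cells. Of its 237 UMIs in SSC-like cells, 214 were from the Cnot3-cKO. In stroma-like cells, the fibroblast-like cells between the tubules, Ly6h was at 13.5 CPM in the control (12.2 to 14.9) and 12.0 in the Cnot3-cKO (10.8 to 13.4). In peritubular myoid-like cells, the smooth-muscle-like cells around the tubules, it was at 7.47 and 8.52, and in a cycling interstitial group at 16.3 and 17.8. Over all interstitial cells the log2 ratio was -0.09 (-0.25 to 0.08). Sertoli-like cells had 0.31 and 0.63 CPM, from 13 and 38 UMIs, a log2 ratio of 1.02 (0.08 to 2.05) that was -0.12 when coarser clusters took a further, unnamed cluster into this class.

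In SSC-like cells Ly6h was at 5.28 CPM in the control (3.35 to 7.93, 23 UMIs) and at 15.4 in the Cnot3-cKO (13.4 to 17.6, 214 UMIs), a log2 ratio of 1.54 (0.92 to 2.23). Within the cluster with Lhx1, which held 106 control and 16 Cnot3-cKO cells, it was at 5.38 and 10.95 from 23 and 6 UMIs, a log2 ratio of 1.03 whose interval included 0 (-0.56 to 2.36). In differentiating-like cells the levels were 3.45 and 3.42, a log2 ratio of -0.01 (-1.14 to 0.96). The control interval there (2.64 to 4.43) overlapped that of control SSC-like cells. Over germ-like cells Ly6h was at 2.92 and 10.98 (log2 ratio 1.91, 1.60 to 2.23), and with the control's mix of stages the ratio was 0.59. The germ cells grouped by somatic genes held 2.10 and 11.1 CPM, from 21 and 53 UMIs.

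At 10000 UMIs per cell Ly6h was detected in 6.54% of 107 control SSC-like cells (2.67 to 13.0%) and in 13.9% of 295 Cnot3-cKO cells (10.2 to 18.4%). The thinned share was 0.229% and 0.642% in Sertoli-like cells, and 16.7% and 39.5% of SSC-like cells had a UMI before thinning. Of 12 stroma markers, 10 were higher in Cnot3-cKO than in control SSC-like cells, none was at 0 in either library, and their summed level was 203 and 210 CPM. In the same cells 8 of 8 peritubular myoid markers were higher (summed level 26.0 and 33.5), and 11 of 12 Sertoli markers (58.6 and 88.4). For endothelial markers this held for 3 of 10 (112 and 70.9) and for macrophage markers for 7 of 12 (27.3 and 18.9). The part of somatic transcripts in the Ly6h value was not tested. Subtracting the profile of empty droplets, where Ly6h was at 6.38 and 4.96, left a ratio of 1.57 in SSC-like cells. Of 108 control SSC-like cells, all 18 with Ly6h also had Gfra1, the receptor subunit that marks SSCs, as did 94 of the 118 Cnot3-cKO cells with Ly6h. Among SSC-like cells without Ly6h, Gfra1 had a UMI in 81 control cells and none in 9, and it had one in 132 Cnot3-cKO cells and none in 49.

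Ly6e was the member with the most UMIs, 44702 of them, of which 63.8% lay in Sertoli-like cells, the cells that line the tubules and nurse the germ cells. Ly6e was highest in macrophage-like cells, at 750.2 CPM in the control (703 to 800) and 709.5 in the Cnot3-cKO (661 to 760). Endothelial-like cells followed at 441 and 535, and Sertoli-like cells at 286 and 277. Stroma-like, peritubular myoid-like and cycling interstitial cells lay between 79.9 and 102.1, and germ stages between 3.78 and 18.6. With the libraries merged, neighbours in this order did not overlap in their intervals down to the interstitial cells, where the cycling group (92.7 to 105) and the myoid-like cells (89.9 to 95.9) did. The germ groups were lowest, and meiotic-like cells lowest of all, at 4.58 (3.27 to 6.23).

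In SSC-like cells Ly6e was at 11.02 CPM in the control (8.13 to 14.6, 48 UMIs) and 18.6 in the Cnot3-cKO (16.4 to 21.0, 259 UMIs), a log2 ratio of 0.76 (0.31 to 1.23). Within the cluster with Lhx1 the levels were 10.5 and 12.8, from 45 and 7 UMIs, a log2 ratio of 0.28 (-1.11 to 1.44). In differentiating-like cells Ly6e was at 10.3 and 14.02 (log2 ratio 0.44, -0.09 to 0.93). Over germ-like cells it was at 11.4 and 16.0 (log2 ratio 0.49, 0.29 to 0.69), and with the control's mix of stages the ratio was 0.22. Sertoli markers, of which 11 of 12 were higher in Cnot3-cKO germ-like cells, summed to 50.3 and 85.9 there, against 9024 and 8928 in Sertoli-like cells, and none was at 0. Their part in the Ly6e value was not tested. Ly6e was at 104 and 139 in the empty droplets, and with their profile subtracted the germ-like ratio was 0.44.

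The somatic ratios of Ly6e were small. The log2 ratio was -0.05 (-0.08 to -0.01) in Sertoli-like, 0.01 (-0.05 to 0.07) in interstitial and -0.08 (-0.22 to 0.06) in macrophage-like cells. In endothelial-like cells it was 0.28 (0.04 to 0.52), and -0.01 without called doublets. At 10000 UMIs per cell Ly6e was detected in 91.0% and 91.5% of Sertoli-like cells and in 4.67% and 16.3% of SSC-like cells (1.53 to 10.6% and 12.2 to 21.0%).

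Ly6a and Ly6c1 were genes of endothelial-like cells, of which there were 37 in the control and 42 in the Cnot3-cKO. Ly6c1 was at 315 CPM in the control (272 to 363, 193 UMIs) and 369.8 in the Cnot3-cKO (321 to 424, 206 UMIs), a log2 ratio of 0.23 (-0.06 to 0.52). In the other named classes its highest level was 1.76, in macrophage-like cells of the Cnot3-cKO, from 2 UMIs. Ly6a was at 89.8 (67.7 to 117, 55 UMIs) and 53.9 (36.3 to 76.9, 30 UMIs) in endothelial-like cells, a log2 ratio of -0.74 (-1.43 to -0.07). In macrophage-like cells it was at 25.8 and 35.2, a log2 ratio of 0.45 (-0.26 to 1.17). In the same 79 endothelial-like cells the interval of Ly6a thus lay below 0 and that of Ly6c1 included 0; the difference between the genes was not tested. Germ-like cells held 13 and 10 UMIs of Ly6a and 3 and 1 of Ly6c1.

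Of 37 control endothelial-like cells, 18 had UMIs of both genes, 16 only of Ly6c1 and 1 only of Ly6a. In the Cnot3-cKO the numbers were 18, 17 and 0 of 42. Thinned to 10000 UMIs, Ly6c1 was detected in 83.9% of 31 control (66.3 to 94.5%) and 70.8% of 24 Cnot3-cKO endothelial-like cells (48.9 to 87.4%), and in 0.878% and 1.41% of Sertoli-like cells. Ly6a was detected in 13 of 31 (41.9%, 24.5 to 60.9%) and 6 of 24 endothelial-like cells (9.77 to 46.7%), and in 1.34% and 0.873% of Sertoli-like cells. Those Sertoli-like shares came with Ly6a at 1.42 and 1.12 CPM, and 34.0% of all Ly6a UMIs lay in these numerous cells. Empty droplets held Ly6a at 0.72 and 0.69 CPM.

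Macrophage-like cells held Ly6a in 8 of 56 and 9 of 63 cells. The same cluster held T cell markers that summed to 546 CPM in the control and 60.7 in the Cnot3-cKO. Ly6c2, the relative of Ly6c1 known from inflammatory monocytes, was at 42.7 and 25.5 in macrophage-like cells, a log2 ratio of -0.74 (-1.45 to -0.06), and only 2 control cells had Ly6a and Ly6c2 together. Interstitial cells, where LY6A marks mesenchymal progenitors in other tissues, had Ly6a at 0.35 and 0.61, although 10 genes found with Ly6a in such progenitors summed to 956.2 and 940.2. In these cells 7 of the 10 genes reached 100 UMIs, and none differed by 1.5-fold (all genes: 1.32% higher, 1.01% lower).

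Ly6d, known from lymphoid progenitors and epithelia, was read in 1 cell of 17527. All 37 of its UMIs lay in a Cnot3-cKO cell of 9751 UMIs in the macrophage-like cluster, which held 5 UMIs of Ly6a and 19 of Ly6e. None of the 12 macrophage markers had a UMI in it. The genes furthest above the other 118 cells of the cluster, looked at after the cell was found, included Igkc (119 UMIs), Ighm (42), Cd79b (26), Cd79a (14) and Ms4a1 (5), which are known from B lymphocytes. Igkc, Cd79a and Ms4a1 had no UMI in those 118 cells. In the control 0 of 8259 cells had the transcript, which allows up to 0.0363% of cells with a UMI and sets no limit on cells expressing the gene, and the empty droplets of each library held 1 UMI. Without this cell, macrophage-like cells of the Cnot3-cKO had Ly6a at 31.1 and Ly6e at 698.8 CPM.

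**Figure D2:**
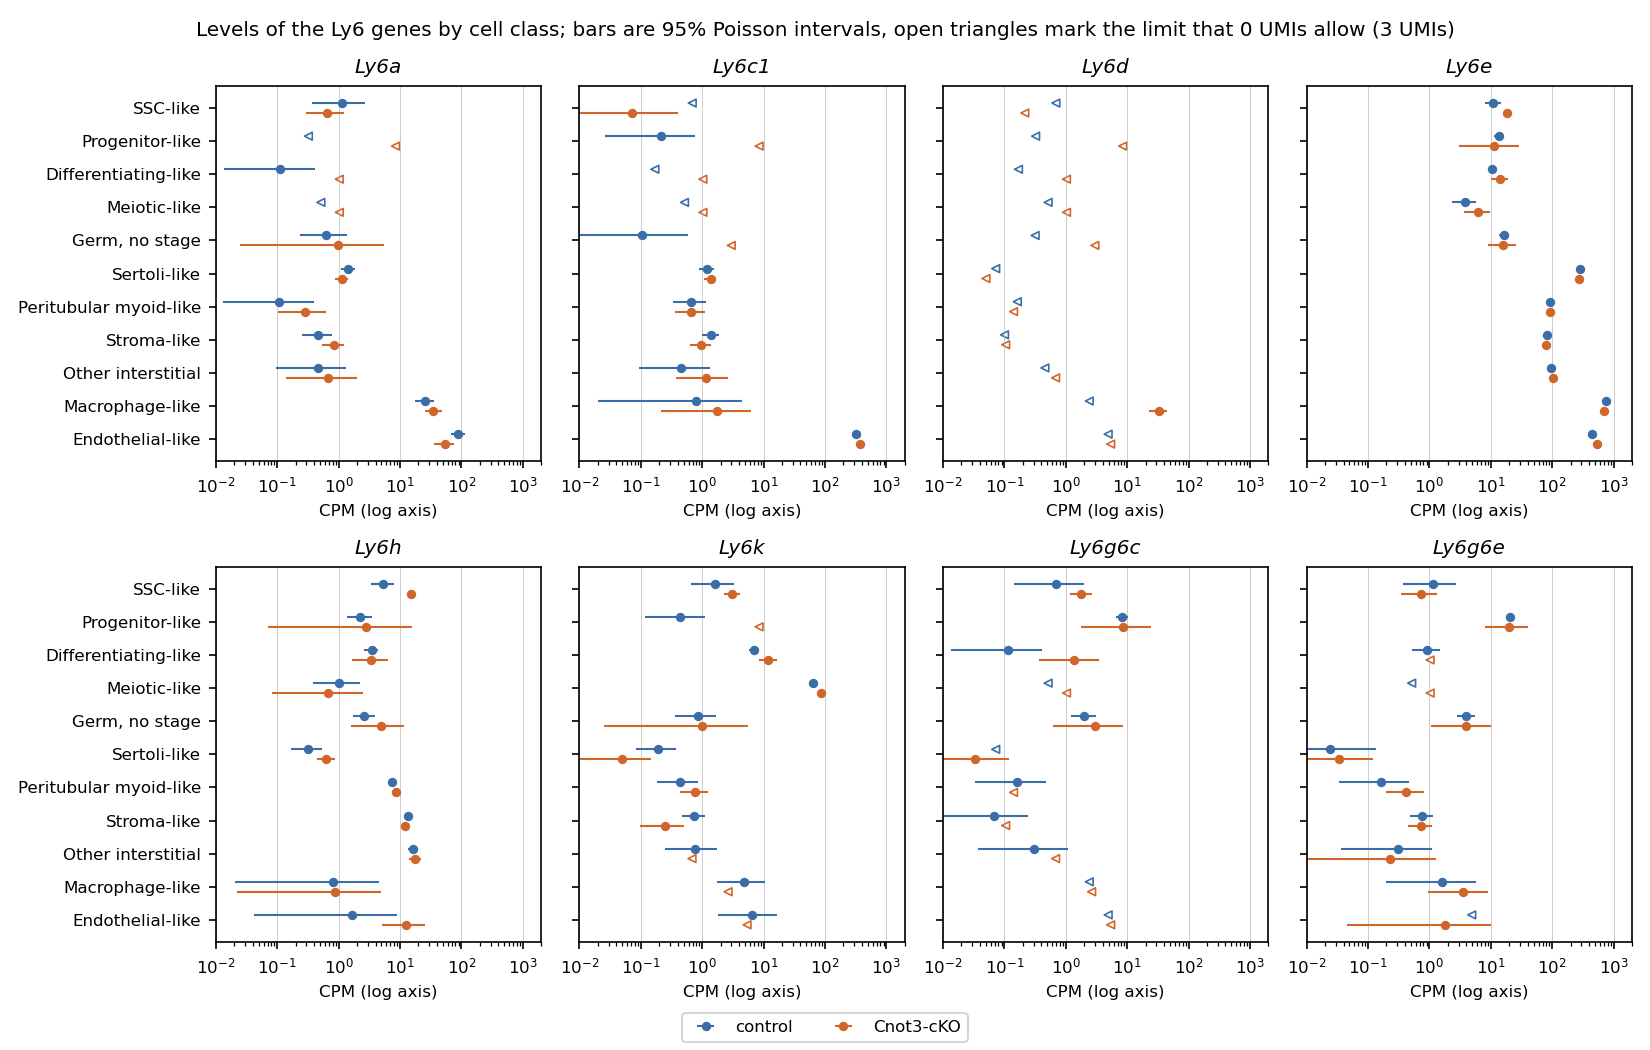
Points give CPM (log axis) of each of the 8 Ly6 genes in 11 cell classes, in the control (blue) and the Cnot3-cKO (orange), with 95% Poisson intervals; open triangles stand at the level of 3 UMIs where none was counted. Ly6e lies at 286 and 277 in Sertoli-like cells, Ly6c1 at 315 and 369.8 in endothelial-like cells, Ly6k at 64.6 and 85.4 in meiotic-like cells and Ly6g6e at 20.4 and 19.8 in progenitor-like cells.

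Set against all genes, the members were counted only where they had at least 100 UMIs over both libraries, and a difference of at least 1.5-fold was counted without a test. Of 12515 genes in germ-like cells, 7.37% were higher in the Cnot3-cKO and 3.74% lower by this measure. Of the 5 members that reached 100 UMIs there (Ly6e, Ly6h, Ly6k, Ly6g6c and Ly6g6e), 1 was higher (Ly6h) and 1 lower (Ly6g6e), with a median log2 ratio of 0.48 against 0.02 for all genes. In SSC-like cells both members with 100 UMIs, Ly6e and Ly6h, were higher, where 10.4% of 9724 genes were higher and 6.6% lower. In meiotic-like cells Ly6k alone reached 100 UMIs and did not pass 1.5-fold (1.3% of genes higher, 1.12% lower). In Sertoli-like cells 0 of 3 members passed (1.11% higher, 0.969% lower), and in interstitial cells 0 of 3 (1.32% higher, 1.01% lower). Since the members were chosen on these contrasts, nothing is read from these shares.

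**Figure D3:**
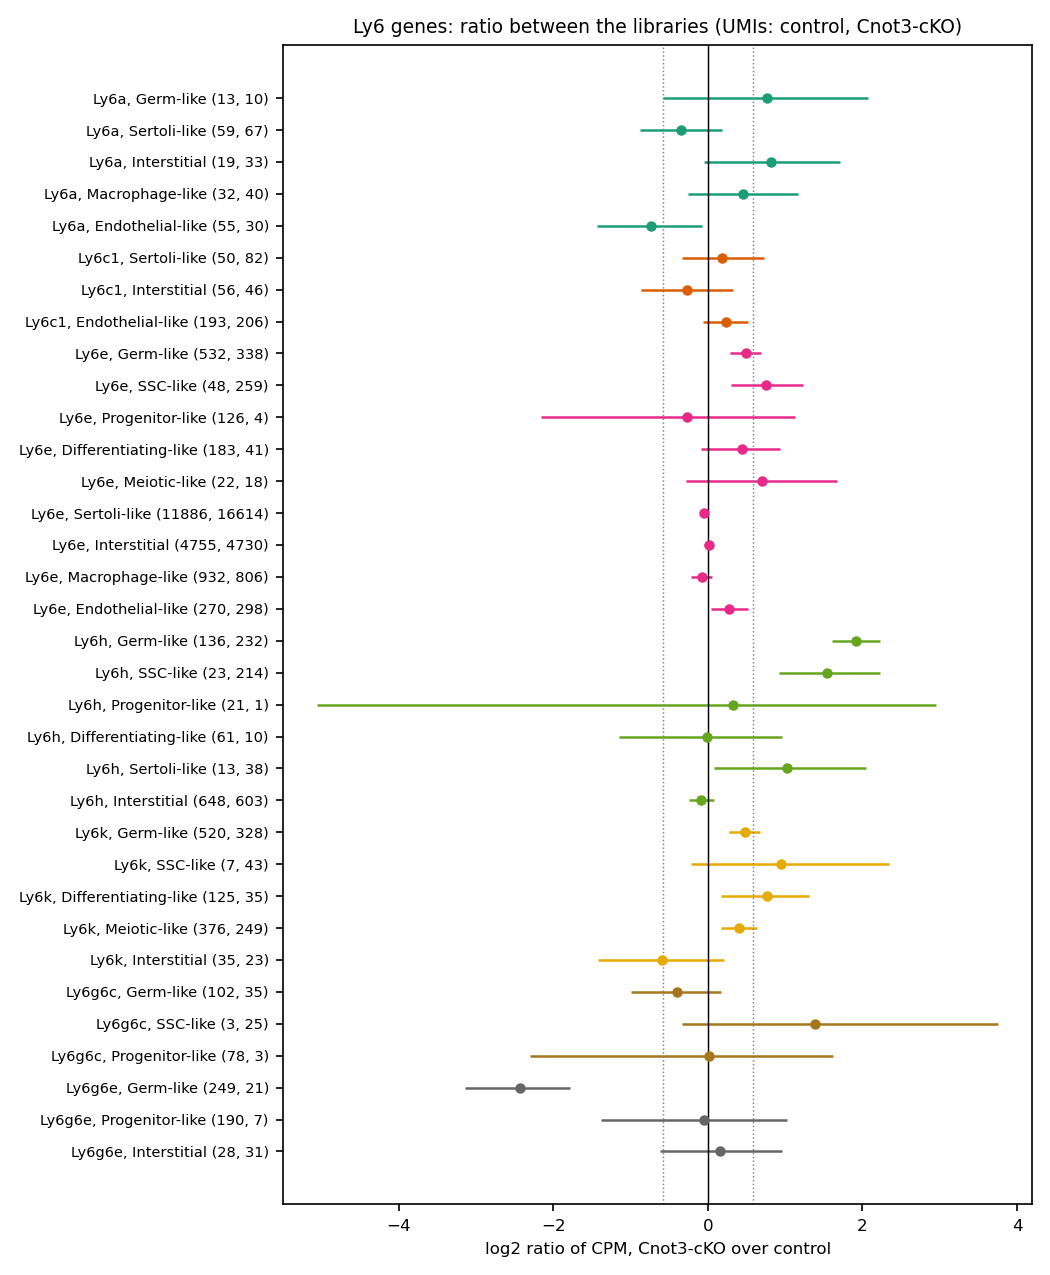
Points give the log2 ratio of CPM, Cnot3-cKO over control, for each Ly6 gene and cell class with at least 20 UMIs over both libraries and at least 1 in each; bars are exact 95% counting intervals, dotted lines mark 1.5-fold and numbers in brackets are UMIs. Ly6h lies at 1.91 and Ly6g6e at -2.43 in germ-like cells, while Ly6g6e in progenitor-like cells lies at -0.05.

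The wider superfamily list held 34 other genes with a row in the matrices, of which 20 had at least 20 UMIs. Tex101, Gml, Gml2, Lypd4, Pinlyp and Psca had between 77.8% and 84.8% of their UMIs in germ-like cells, and Pate2 54.5%. Over germ-like cells Tex101 was at 160 and 256 CPM (log2 ratio 0.68, 0.63 to 0.73), Gml at 6.39 and 11.7 (0.88, 0.63 to 1.13) and Gml2 at 11.4 and 17.8 (0.65, 0.45 to 0.84). Gml and Gml2 lie between Ly6k and Ly6e on chromosome 15. In meiotic-like cells, where Ly6k peaked, Gml was at 2.75 and 3.43 and Gml2 at 4.12 and 8.23. In differentiating-like cells Gml was at 7.58 and 16.8 (log2 ratio 1.14, 0.64 to 1.63) and Gml2 at 14.5 and 25.6 (log2 ratio 0.82). Plaur, the urokinase receptor, had 62.0% of its UMIs in interstitial cells and 22.4% in germ-like cells. It was at 0.51 and 2.32 over germ-like cells (log2 ratio 2.17, 1.44 to 2.94), but at 2.99 and 3.45 in SSC-like cells.

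Psca was at 0.28 and 1.04, Lypd4 at 0.34 and 1.09 and Pinlyp at 0.39 and 0.90 over germ-like cells, each from fewer than 40 UMIs. Values over germ-like cells, here and in the gene lists below, pool germ groups whose mix differed between the libraries. In SSC-like cells, which held 51.1% of its UMIs, Psca was at 0.69 and 1.44 (log2 ratio 1.06, -0.69 to 3.45). Ly6g6d, which overlaps Ly6g6e, was at 1.42 and 0.62 (log2 ratio -1.20, -2.18 to -0.33). Pate2 was at 5.36 and 5.07, Lypd6, with 62.8% of its UMIs in interstitial cells, at 3.15 and 3.503, and Lynx1, a modulator of nicotinic receptors like LY6H, at 2.79 and 2.18 over germ-like cells. Lynx1 was at 11.4 in the stroma-like cells of both libraries. Ly6g5b (0.49 and 0.43) and Lypd1 (0.79 and 0.71) were low.

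Among somatic members of the list, Gpihbp1, the endothelial protein that carries lipoprotein lipase, was at 547 and 233 in endothelial-like cells (log2 ratio -1.23, -1.53 to -0.93). It had a UMI in 26 of the 34 control cells with Ly6c1 and in all 3 without Ly6c1. In the Cnot3-cKO, 23 cells had both genes, 12 only Ly6c1, 6 only Gpihbp1 and 1 neither. Cd59a, an inhibitor of complement, was at 36.0 and 33.8 in Sertoli-like and 49.96 and 41.9 in interstitial cells (log2 ratio -0.25, -0.33 to -0.17), where its copy Cd59b was at 1.11 and 1.48. Ly6i had 6 and 23 UMIs in Sertoli-like cells, at 0.14 and 0.38. In interstitial cells Lypd2 was at 0.38 and 0.59 and Lypd3 at 0.44 and 0.28. Of the 6 other superfamily genes with 100 UMIs in germ-like cells, 3 were higher by 1.5-fold and 0 lower. Of all genes with that many UMIs there, 7.37% were higher and 3.74% lower. The median log2 ratio was 0.40 for these 6 genes and 0.02 for all genes.

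**Figure D4:**
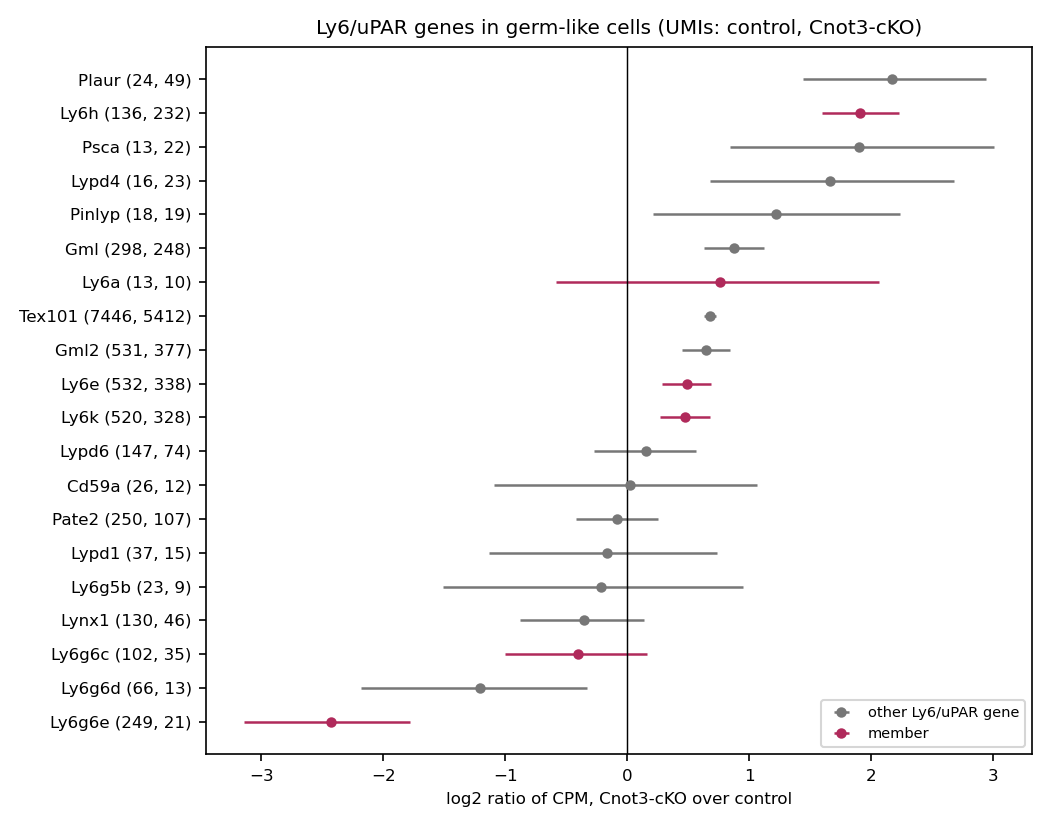
Points give the log2 ratio of CPM over all germ-like cells, Cnot3-cKO over control, for members (red) and other Ly6/uPAR genes (grey) with at least 20 UMIs there; bars are exact 95% counting intervals and numbers in brackets are UMIs. Plaur (2.17) and Ly6h (1.91) lie at the upper end and Ly6g6e (-2.43) at the lower end.

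Genes of the pathways in which these proteins take part were listed as well. Of 29 measured interferon response genes, 16 had 100 UMIs in germ-like cells, 5 higher and 3 lower by 1.5-fold, with a median log2 ratio of 0.30. Of all genes with that many UMIs there, 7.37% were higher and 3.74% lower. In SSC-like cells 2 of 11 were higher and 2 lower, where 10.4% and 6.6% of all genes were, and in differentiating-like cells 0 of 8 were higher and 3 lower, where 2.73% and 3.53% were. The highest were Rsad2 (1.52 and 4.36 CPM, log2 ratio 1.52), Gbp3 (6.69 and 16.9, 1.34) and Bst2 (46.6 and 78.6, 0.75), and the lowest Oasl2 (15.6 and 5.92, -1.40), Ifitm1 (13.2 and 5.07, -1.38) and Ifitm3 (2.02 and 1.28, -0.66). The members of this list thus lay on both sides of Ly6e, whose germ-like log2 ratio was 0.49. In Sertoli-like cells, where Ly6e is plentiful, 0 of 20 were higher and 2 lower (all genes: 1.11% and 0.969%). In interstitial cells 0 of 22 were higher and 1 lower (all genes: 1.32% and 1.01%).

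The list of GPI anchor genes holds genes that build and attach the anchor. It also holds a few that remodel it, such as Pgap1, or cleave it, such as Gpld1. Of 30 measured, 26 had 100 UMIs in germ-like cells and none differed by 1.5-fold there, with a median log2 ratio of -0.12. Of all genes with that many UMIs there, 7.37% were higher and 3.74% lower. In SSC-like cells 1 of 22 was higher and 3 were lower (all genes: 10.4% and 6.6%). In differentiating-like cells 1 of 23 was higher and 1 lower (all genes: 2.73% and 3.53%). Pigp (77.2 and 101, log2 ratio 0.39), Piga (11.5 and 13.2, 0.20) and Pigo (6.88 and 7.76, 0.17) were at the upper end. Pigu (18.2 and 13.4, -0.44), Gpaa1 (26.7 and 20.6, -0.38) and Pigl (2.62 and 2.04, -0.36) were at the lower end.

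Among 13 genes of the TEX101 and LY6K route to sperm fertility, which include both, 7 had 100 UMIs in germ-like cells. Of these 1 was higher by 1.5-fold, Tex101, and 0 lower (all genes: 7.37% and 3.74%), with a median of 0.29. Ly6k (0.48) and Clgn, a chaperone of the endoplasmic reticulum (14.1 and 19.3, 0.45), came next. Tpst2, which sulfates tyrosines (44.2 and 31.5, -0.49), Pgap1, which remodels the anchor (27.2 and 22.2, -0.29), and Ace, which is known to release TEX101 (4.61 and 5.54, 0.26), were lowest. Of 16 nicotinic receptor subunit genes, 3 had 100 UMIs in germ-like cells: Chrna7 (3.09 and 5.35, log2 ratio 0.79), Chrna5 (4.38 and 4.36, -0.01) and Chrna4 (6.88 and 3.83, -0.84). Of the genes found with Ly6a in mesenchymal progenitors, Pi16 (1.18 and 2.46, 1.06), Pdgfra (4.12 and 4.12, 0.00) and Cd34 (4.03 and 3.69, -0.13) reached 100 UMIs in germ-like cells.

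The genes most like each member were found by Pearson's r of log2(CPM + 1) over 16 points, 8 classes with at least 50 cells in each of the 2 libraries. The points share libraries, and a gene that peaks in 1 class gives a high r with any other gene of that class. For Ly6k these were Esx1 (r = 0.98), Dll3 (0.97) and Prss50 (0.97), of which Esx1 and Prss50 also lead the meiotic-like cluster. For Ly6e they were Prr13 (0.99), Il10rb (0.98) and Manba (0.98). For Ly6h they were Igf2bp2, Vash2 and Fam217a (0.94 each).

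Endothelial-like and progenitor-like cells were too few for this measure, which therefore left out the classes where Ly6a, Ly6c1 and Ly6g6e peak. By it they were nearest to Hexa, Mrc1 and Cryba4 (0.98 each), to Anxa3 (0.96), St3gal6 (0.95) and Atg4c (0.95), and to Lyve1 (0.91), Gngt2 (0.90) and Abca1 (0.89). With 11 classes of at least 25 cells and the libraries merged, a choice made after seeing the data, Ly6c1 was nearest to Icam2 (0.98), Aplnr (0.98) and the unnamed gene RP23-162H6.1 (0.98), and Ly6a to Parvb (0.99), Cd38 (0.98) and Ctla2a (0.98). Ly6g6e was then nearest to Bcl6 (0.94), Cpsf4l (0.87) and Cebpg (0.87). Ly6d and Ly6g6c had fewer than 200 UMIs and were not compared.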

How the data were processed

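Counts of UMIs per gene and barcode were deposited by the authors as 1 matrix per genotype. The submitters' processing notes name Cell Ranger 3.0.1 and mm10. The matrices hold 181550221 UMIs for the control and 168770743 for the Cnot3-cKO, over all barcodes. Cells were called above the 99th percentile of UMIs among the 3000 largest barcodes divided by 10 and kept at up to 20% mitochondrial UMIs. They were normalised to 10000 UMIs, reduced to 30 components of 2500 variable genes and clustered (Leiden resolution 0.5, scanpy 1.11.5 in Python 3.11.15) without Ly6/uPAR genes; germ-like cells were clustered again, also without stage and cell cycle genes. A stage was named only where at least 1 of its markers was among the top 10 genes, a rule settled after seeing the data. UMIs were summed per class and library and divided by the class total, as counts per 1000000 UMIs (CPM). With 1 library per genotype there are no replicates, no test and no p-value: intervals are exact 95% Poisson, conditional binomial (ratios) or Clopper-Pearson (shares), and they cover counting error only. A gene at 0 was bounded by 3 UMIs. The ratio step was tested on simulated data. Empty droplets are barcodes with up to 100 UMIs. Doublets were called with Scrublet and kept unless stated.

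Named were all members, other superfamily genes with at least 20 UMIs, the 3 highest and 3 lowest genes of each list counted 100 times or more in the germ line, and the 3 genes most like each member with at least 200 UMIs. The members and lists were chosen with earlier results of these data known.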

Additional observations from a re-analysis of the deposited data

How the results depend on the processing

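Of the recomputed log2 ratios, 289 stayed inside their counting interval, 20 moved outside it, and 1 past 1.5-fold turned its direction: Ly6h in Sertoli-like cells at a Leiden resolution of 0.3 (-0.12), where a cluster unnamed otherwise joined that class. Smaller ratios changed sign too, outside their interval for Ly6g6c in germ-like cells (0.45, with the control's mix of stages), Ly6e in endothelial-like cells without doublets (-0.01) and Ly6e in cells of no stage with the stated filters (1.54). The last of these values rests on 1 Cnot3-cKO cell left by the filters, beside 53 control cells. Of the recomputed levels, 478 stayed inside their interval and 69 moved outside it, among them Ly6k in meiotic-like cells at a Leiden resolution of 1.0 (106 and 153) and Ly6g6e in control germ-like cells with the stated filters (1.38). With the study's stated filters, which leave 214 germ-like cells in the control, 60 in the Cnot3-cKO and none of its progenitor-like cells, the germ-like log2 ratios were 2.27 for Ly6a, 0.22 for Ly6e, 0.61 for Ly6h and -0.90 for Ly6g6e, and Ly6k in meiotic-like cells was at 0.73. That Ly6k ratio rests on 56 control and 13 Cnot3-cKO cells. With the control's mix of stages in both libraries, an alternative added after seeing the data, the germ-like ratios were 0.22 for Ly6e, 0.59 for Ly6h, 0.45 for Ly6g6c and -0.15 for Ly6g6e. These reweighted ratios have no intervals, and the Cnot3-cKO side of each draws on 6 progenitor-like cells. Cells with 10 UMIs of Ddx4 and Dazl, taken without clustering, gave 0.22 for Ly6e. Ly6e in macrophage-like cells was at -0.31 with the stated filters, -0.27 without doublets, -0.27 after subtracting empty droplets and -0.22 as a mean over cells; the cause was not tested. Counting genes from 20 UMIs gave 15644 genes in germ-like cells, 12.4% higher and 5.37% lower by 1.5-fold. By Spearman's rho the nearest genes were others, except Igf2bp2 for Ly6h. No paired analysis was possible because each genotype's samples are merged in 1 matrix. Levels near 1 CPM in classes of under 100 cells lie at the limit of depth.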
